A study of Mus musculus with 11 samples.

Results

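Genes that steer the traffic of lymphocytes between blood, lymphoid organs and tissue were read in mouse regulatory T cells (Tregs). They are S1pr1, S1pr4, Cd69, Cd44, Selplg and Gpr183. The members were the rows of these 6 symbols in the deposited expression table, which lists 14604 genes, and all 6 were found and passed a filter on low values that kept 13897 genes. Every one is read in all 11 libraries, grouped by tissue and genotype.

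Tregs were sorted from MC38 tumors, a transplanted mouse colon adenocarcinoma line, and, per the study's methods, from the spleens of the same mice. The sort gate was live CD4+GITR+CD25+ cells, and FOXP3 was not part of it. The wild-type (WT) mice were CD177flox/flox without Cre and the knockout (KO) mice CD177flox/flox/FOXP3-CreYFP, in which Cre recombinase follows the Foxp3 gene, so that loss of CD177 and the presence of Cre and YFP cannot be told apart. The mice were C57BL/6, both genotypes carry the floxed alleles, and all spleen donors bore tumors. The 4 groups were spleen Tregs of WT mice (3 libraries), spleen Tregs of KO mice (3), tumor-infiltrating Tregs (TI-Tregs) of WT mice (3) and TI-Tregs of KO mice (2). The labels give neither age nor whether a library came from 1 mouse or a pool, so p-values measure the spread between these libraries, which may be technical in part. Cd177 is not listed among the values used here, so the genotype labels were not checked against it.

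Naive and central lymphocytes recirculate. They leave lymphoid organs along a gradient of sphingosine 1-phosphate (S1P), a lipid that is abundant in blood and lymph, through the receptor S1PR1. CD69, an early activation antigen, binds S1PR1 at the cell surface and draws it inward, which holds cells in the organ. Entry uses adhesion. PSGL-1, the product of Selplg, is a glycosylated ligand of the selectins on vessel walls, and CD44 binds the matrix polysaccharide hyaluronan and marks activated and effector cells. GPR183, also called EBI2, guides lymphocytes towards oxysterols within lymphoid tissue.

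The unit throughout is the deposited log2(n + 1), in which n derives from estimated read counts summed by gene and has a scaling that is not stated. Values can be compared between libraries for 1 gene, and levels are not compared between genes. Summed n ran from 712832 to 844331 in the spleen libraries and from 1103159 to 1304548 in the tumor libraries. These totals lie far below the read depth that the methods state, so n cannot be read as a number of reads and a fold is one of n + 1 on this scale. One gene model, Gm12896, made up 31.4% to 42.4% of these totals. The T cell gene Cd3e was read in both tissues and was lower in tumor, at 8.17 ± 0.064 (SD of the 6 spleen libraries) against 7.55 ± 0.30 (SD of the 5 tumor libraries). Foxp3, which defines Tregs, was 6.35 ± 0.30 in spleen and 5.50 ± 0.55 in tumor. Among the gate genes, Cd4 was lower in tumor (7.72 in spleen, 7.30 in tumor) and Tnfrsf18 (GITR) higher (6.43 and 7.51). Il2ra (CD25) was not called and ran from 7.02 to 7.46 in spleen and from 6.51 to 7.51 in tumor. The 8 Treg and sort markers counted 5 lower in tumor, 2 higher and 1 not called (median difference -0.55). Markers of other cells moved with tissue. All 16 myeloid markers tested were higher in tumor (median difference 5.06), their summed level running from 8.29 to 9.23 in spleen and from 13.76 to 14.37 in tumor on the log2 scale. Lyz2, the gene of a myeloid lysozyme, was 4.75 in spleen and 12.35 in tumor. Of 10 CD8 T and NK cell markers 6 were higher, 1 lower and 3 not called (median 2.20), their summed level running from 5.59 to 6.57 in spleen and from 8.04 to 9.42 in tumor. Cd8a was 1.41 in spleen and 5.40 in tumor, and Gzmb 2.24 and 7.67. CD8 T cells carry the T cell lineage genes too. Of dendritic cell markers 7 of 9 were higher, and of B cell markers 5 of 7 were lower. Of 12 T cell lineage genes 10 were lower in tumor, and the mean of the 12 lay between 7.66 and 7.77 in spleen and between 6.65 and 7.43 in tumor. Their summed level ran from 11.44 to 11.56 in spleen and from 10.53 to 11.34 in tumor. In such bulk samples fewer cells of a type and less RNA per cell cannot be told apart, and the part of other cells in the results that follow was not tested except where a value is given.

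In the tumor libraries the S1P receptor genes S1pr1 and S1pr4 were lower than in spleen, and Cd44 was higher. S1pr1 was 6.03-fold lower in tumor than in spleen, and S1pr4 2.53-fold, while Cd44 was 4.10-fold higher (folds of n + 1). As deposited, Gpr183 was 1.88-fold lower, a call that was lost when libraries were centred on T cell genes. As deposited, Cd69 was 1.40-fold lower and Selplg 1.32-fold higher, but Cd69 turned higher when centred on T cell genes and Selplg lower after quantile normalization or with equal library totals. All 6 passed the test in limma at an adjusted p below 0.05, 4 lower and 2 higher on the deposited scale. The background was high, since 78.9% of the tested genes passed in either direction, 43.1% higher and 35.9% lower, so that passing alone does not set these genes apart. For 5 of the 6, all but Cd69, no tumor library overlapped the spleen libraries, 3 being lower and 2 higher. Of the tested genes 63.5% showed this, 35.2% higher and 28.4% lower. The median difference over all tested genes was 0.082 on the log2 scale.

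**Figure D1:**
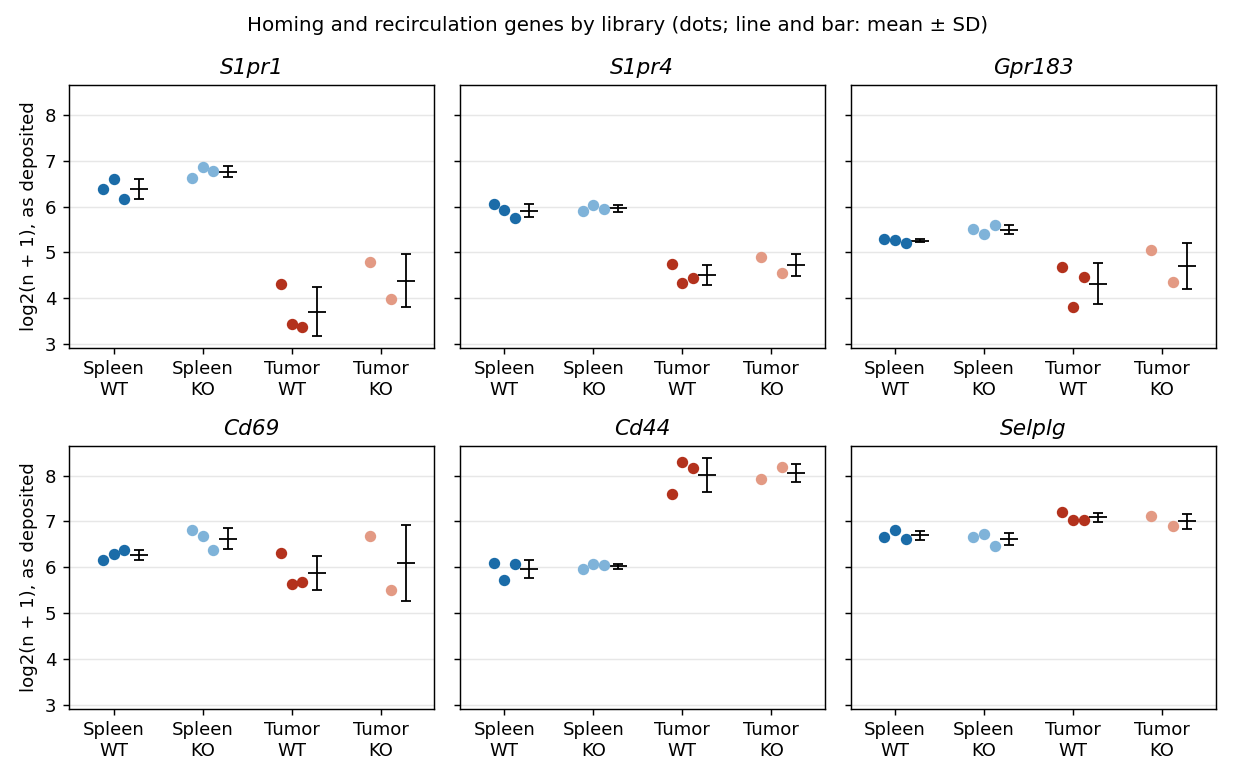
Each panel shows 1 gene, with a dot for each library, by tissue and genotype, on the deposited log2(n + 1) scale, and with the mean and SD of each group as a line and bar. S1pr1 lies between 6.16 and 6.87 in spleen and between 3.37 and 4.79 in tumor, Cd44 shows the opposite order, and Cd69 is the gene whose tissues overlap.

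S1pr1 (ENSMUSG00000045092.8, chr3:115710433-115715072, minus strand, mm10) encodes the main egress receptor. In spleen it read 6.63, 6.87 and 6.78 in the KO libraries and 6.39, 6.61 and 6.16 in the WT libraries. In tumor it read 4.79 and 3.98 in KO and 4.32, 3.44 and 3.37 in WT. Every tumor library lay more than 1 log2 unit below the lowest spleen library. The difference was -2.59 (SE 0.23, limma adjusted p = 3.42e-07), and its 95% confidence interval as a fold ran from 4.25 to 8.55. An exact two-sided permutation test over the 462 ways to assign the libraries gave p = 0.0043, the smallest it can give. Ranked from the most negative, this difference was the 74th of the 13897.

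S1pr4 (ENSMUSG00000044199.6, chr10:81497747-81500132, minus strand) encodes the second S1P receptor characteristic of blood cells. Its spleen values were 5.89, 6.04 and 5.95 in KO and 6.05, 5.93 and 5.76 in WT. Its tumor values were 4.90 and 4.56 in KO and 4.76, 4.33 and 4.44 in WT, all below the spleen values. S1pr4 was lower by a smaller and more uniform step than S1pr1, with a difference of -1.34 (SE 0.10, limma adjusted p = 6.05e-08; permutation p = 0.0043, exact).

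Gpr183 (ENSMUSG00000051212.8, chr14:121952551-121965195, minus strand) encodes the oxysterol receptor. Spleen libraries read 5.50, 5.39 and 5.59 in KO and 5.29, 5.27 and 5.21 in WT. Tumor libraries read 5.06 and 4.35 in KO and 4.67, 3.81 and 4.45 in WT. The tissues did not overlap, although KO replicate 1 of the tumor lay only just under the lowest spleen library. The difference was -0.91 (SE 0.17, limma adjusted p = 0.000308; permutation p = 0.0043, exact).

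Cd69 (ENSMUSG00000030156.5, chr6:129267325-129275436, minus strand) encodes the antigen that retains S1PR1. In spleen it read 6.81, 6.69 and 6.38 in KO and 6.16, 6.29 and 6.37 in WT. In tumor it read 6.68 and 5.51 in KO and 6.31, 5.64 and 5.68 in WT. In tumor, KO replicate 1 and WT replicate 1 fell within the spleen range and the other 3 below it. The difference of -0.49 (SE 0.20) passed narrowly in limma (adjusted p = 0.041), and the exact permutation test gave p = 0.069. The call was lost in 7 of the 11 fits that left out 1 library, with adjusted p from 0.053 to 0.11. Those were the fits without KO replicate 1, 2 or 3 or WT replicate 3 of the spleen, and without KO replicate 2 or WT replicate 2 or 3 of the tumor.

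Cd44 (ENSMUSG00000005087.17, chr2:102811141-102901665, minus strand) encodes the hyaluronan receptor. Spleen libraries read 5.96, 6.07 and 6.04 in KO and 6.10, 5.73 and 6.07 in WT. Tumor libraries read 7.92 and 8.19 in KO and 7.59, 8.29 and 8.17 in WT. All 5 tumor libraries were above all 6 spleen libraries, the lowest being WT replicate 1. The difference was 2.04 (SE 0.12, limma adjusted p = 5.13e-09; permutation p = 0.0043, exact), and the interval of the fold ran from 3.44 to 4.89. Myeloid markers were lowest in the 2 tumor libraries with the least Cd44, at 13.76 in WT replicate 1 and 14.01 in KO replicate 1 against 14.24 to 14.37 in the others. Myeloid and CD8 T cells also carry CD44, and their part in this rise was not tested.

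Selplg (ENSMUSG00000048163.13, chr5:113818536-113832644, minus strand) encodes PSGL-1. Its spleen values were 6.66, 6.72 and 6.47 in KO and 6.65, 6.81 and 6.63 in WT. Its tumor values were 7.12 and 6.89 in KO and 7.20, 7.02 and 7.03 in WT. The tissues did not overlap, but the step of 0.40 was small (SE 0.071, limma adjusted p = 0.000192; permutation p = 0.0043, exact). Its sign depended on how libraries were scaled, as given next.

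The scaling of n moved the median of all tested genes, so each member was also read under 4 other scalings. That median was 0.082 as deposited, -0.16 after quantile normalization, -0.14 after median centring, -0.44 with equal library totals and 0.81 when each library was centred on the 12 T cell lineage genes. Of the called genes, 54.5% were higher in tumor as deposited, against 42.1%, 43.7%, 29.6% and 87.0% under these scalings in the same order. S1pr1, S1pr4 and Cd44 kept their direction and their call under all of them, with S1pr1 between -3.19 and -1.87, S1pr4 between -1.95 and -0.61 and Cd44 between 1.41 and 2.76. Gpr183 stayed lower but was -0.18 (limma adjusted p = 0.30) when centred on T cell genes. Cd69 turned to 0.24 (adjusted p = 0.17) under that centring. Selplg turned to -0.22 after quantile normalization (adjusted p = 0.032) and to -0.23 with equal totals (adjusted p = 0.030), and was 0.18 after median centring (adjusted p = 0.060). The direction of Selplg therefore cannot be read from these values alone.

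**Figure D2:**
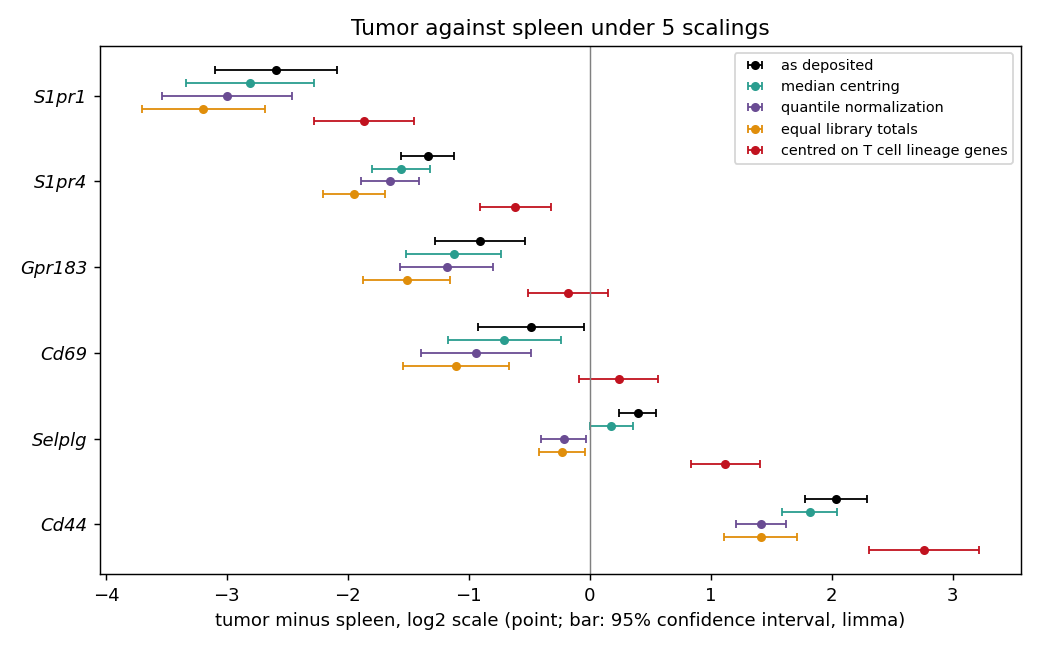
Points are the tumor minus spleen difference of each gene on the log2 scale in limma, bars the 95% confidence interval, and colors the 5 scalings of the libraries. S1pr1, S1pr4 and Cd44 stay on 1 side of 0 in every scaling, whereas Selplg and Cd69 cross it.

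Differences within a library cancel any common scale. Against the mean of the 12 T cell lineage genes, S1pr1 stood at -1.14 ± 0.29 in the 6 spleen and at -3.01 ± 0.43 in the 5 tumor libraries (mean ± SD), a difference of -1.87 (exact two-sided permutation p = 0.0043, 0.0058 after Benjamini-Hochberg adjustment over 8 such measures). S1pr4 lay 0.61 log2 units lower in tumor by this measure (-0.61), Selplg 1.12 higher and Cd44 2.76 higher, each with no overlap of the tissues and the same exact p and adjusted p. How many of all genes lacked overlap on this measure was not computed. With libraries centred on these T cell genes, 10451 of the 13897 tested genes passed in limma, 9093 higher and 1358 lower. Their background was a median of 0.81 over all tested genes, so passing alone does not set these members apart. Cd69 stood 0.24 higher relative to T cell genes (exact p = 0.13, adjusted 0.15) and Gpr183 0.18 lower (-0.18, exact p = 0.24, adjusted 0.24), and neither difference passed. Cd69 varied less between tumor libraries when read relative to T cell genes. Its SD over the 5 tumor libraries was 0.51 as deposited and 0.25 relative to T cell genes. This was not particular to Cd69. The SD narrowed for S1pr1 (0.60 to 0.43), S1pr4 (0.23 to 0.21) and Gpr183 (0.46 to 0.30) and widened for Cd44 (0.28 to 0.61) and Selplg (0.12 to 0.24).

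S1pr1 and Cd69 parted between the tissues. The level of S1pr1 minus that of Cd69 was -0.18, 0.18 and 0.40 in the KO and 0.23, 0.32 and -0.21 in the WT spleen libraries. In tumor it was -1.89 and -1.53 in KO and -1.99, -2.20 and -2.31 in WT. All tumor libraries were far below the spleen range, including the pair in which Cd69 itself was as high as in spleen. The tissue means differed by -2.11 (exact permutation p = 0.0043, adjusted 0.0058). S1pr4 minus S1pr1 ran from -0.84 to -0.33 in spleen and from 0.11 to 1.07 in tumor, so the balance of the S1P receptors shifted from S1pr1 towards S1pr4 by 1.25 (exact p = 0.0043, adjusted 0.0058). These are changes in balance, not in absolute levels of either gene.

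**Figure D3:**
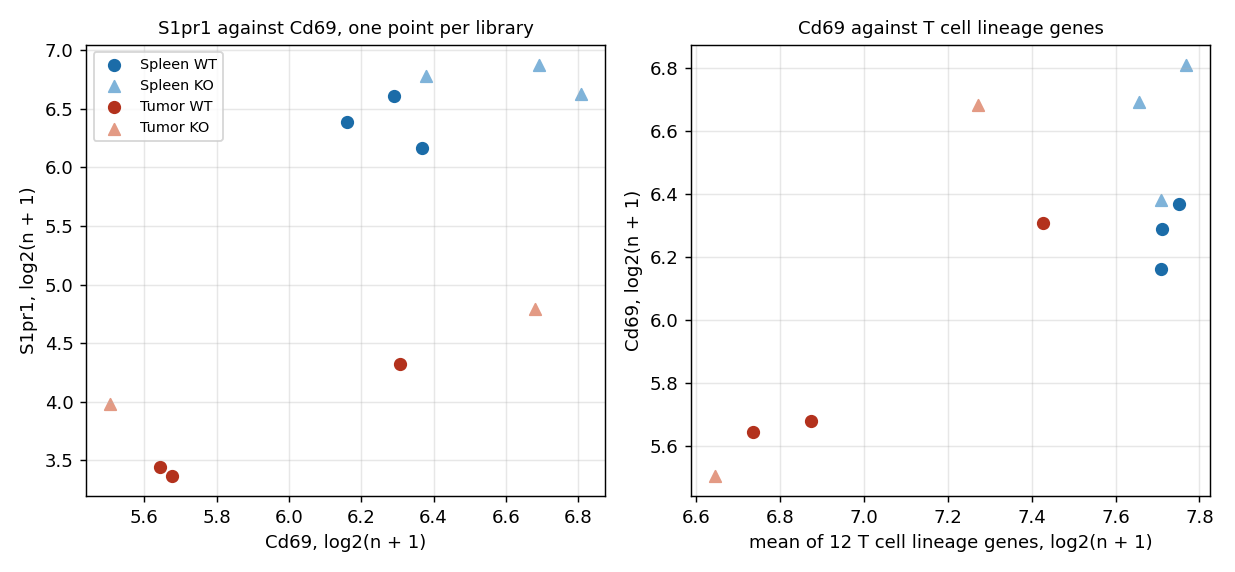
Left, S1pr1 against Cd69, and right, Cd69 against the mean of 12 T cell lineage genes, all on the deposited log2(n + 1) scale with 1 point for each library, circles for WT and triangles for KO. Tumor libraries lie below the spleen libraries in S1pr1 at any Cd69 level, and the tumor libraries with more Cd69 are those with higher T cell genes.

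One pair of tumor libraries stood highest in several members. KO replicate 1 had the highest tumor value of 4 of the 6 genes (S1pr1, S1pr4, Cd69 and Gpr183), and WT replicate 1 was the next in each. The mean of the T cell lineage genes was also highest in this pair, at 7.27 and 7.43 against 6.65 to 6.87 in the other 3. Without KO replicate 1 of the tumor and KO replicate 2 of the spleen together, a choice made after the data were seen, all 6 members passed, against 77.6% of all tested genes (42.6% higher, 35.1% lower). S1pr1 was then -2.74 and Cd69 -0.62 (limma adjusted p = 2.98e-07 and 0.0061). KO replicate 1 held the highest tumor value of both, so a lower tumor mean of both was fixed by this choice. These values are therefore no added support. Without KO replicate 2 of the spleen alone, the Cd69 call was lost (limma adjusted p = 0.079).

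Both genotypes showed the tissue difference. In WT mice 5 of the 6 members passed, 3 lower and 2 higher, against 70.5% of all tested genes (39.2% higher, 31.3% lower). S1pr1 was -2.67 (SE 0.26, limma adjusted p = 7.63e-06), S1pr4 -1.41, Gpr183 -0.94, Cd44 2.05 and Selplg 0.39. In KO mice the same 5 passed, again 3 lower and 2 higher, against a background of 65.7% (36.2% higher, 29.5% lower). There S1pr1 was -2.37 (SE 0.30, limma adjusted p = 5.21e-05), S1pr4 -1.23, Gpr183 -0.79, Cd44 2.03 and Selplg 0.39. Cd69 passed in neither, at -0.40 in WT (adjusted p = 0.21) and -0.53 in KO (adjusted p = 0.14). The KO contrast rests on 2 tumor libraries. Without tumor KO replicate 1, Cd69 there was -1.12 (adjusted p = 0.0038) and Selplg 0.27 (adjusted p = 0.096), and without tumor KO replicate 2, Gpr183 was -0.44 (adjusted p = 0.18) and Cd69 0.054.

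No member passed the test of an interaction of tissue with genotype, where 0% of the tested genes passed in limma. Before adjustment no member and 383 of all genes had p below 0.05. The largest estimate was that of S1pr1, 0.30 with a 95% interval from -0.58 to 1.18. The interval was narrowest for Selplg, -0.33 to 0.33, and for Cd44 it ran from -0.59 to 0.55, so interactions of the size of the Cd44 tissue difference lie outside it. For S1pr1 an interaction of more than 2-fold lies inside it.

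The loss of CD177 was compared within each tissue. In spleen no member passed in limma, 0% of all genes passed, and the smallest unadjusted p of a member was 0.18, while 281 of all genes were below 0.05 before adjustment. S1pr1 was 0.38 higher in KO (interval -0.21 to 0.96), Cd69 0.35 higher (-0.25 to 0.95) and Gpr183 0.24 higher (-0.24 to 0.72). For these 3 genes every KO spleen library lay above every WT spleen library, and 9.17% of all tested genes were so separated, 4.84% higher and 4.32% lower in KO. S1pr4, Cd44 and Selplg overlapped, at 0.045, 0.059 and -0.079. In tumor no member passed either, against 0.0072% of all genes, a single gene. S1pr1 had the largest estimate, 0.68 higher in KO with an interval from 0.022 to 1.33, which became 0.27 without tumor KO replicate 1 and 1.08 without tumor KO replicate 2. Its p of 0.044 was unadjusted, a level that 4.56% of all genes reached, and its limma adjusted p was 0.9997. Gpr183 was 0.39 higher (-0.15 to 0.93), S1pr4 0.22 (-0.11 to 0.56) and Cd69 0.22 (-0.45 to 0.89), and Cd44 and Selplg were 0.036 and -0.080. KO and WT tumor libraries overlapped in all 6 members.

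**Figure D4:**
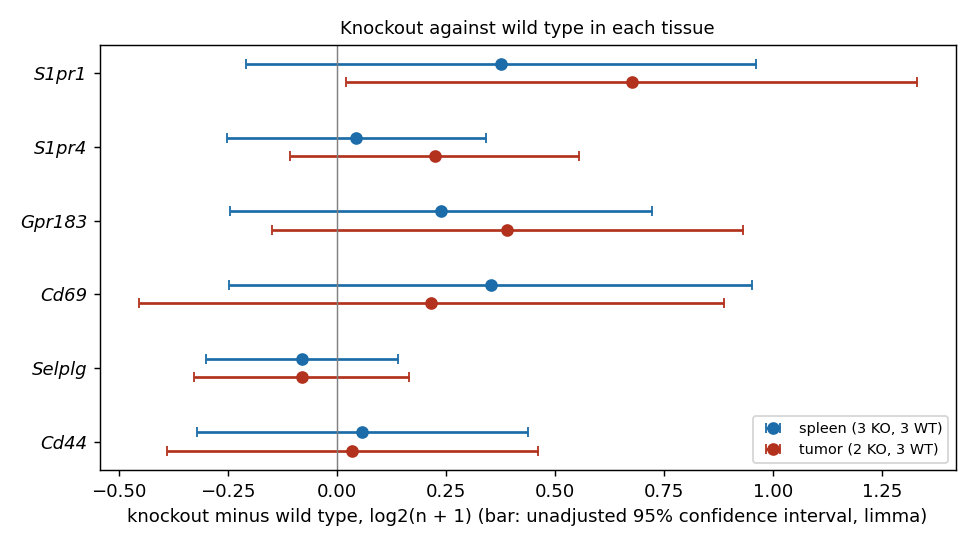
Points are the KO minus WT difference of each gene on the deposited log2(n + 1) scale and bars the unadjusted 95% confidence interval in limma, in spleen (3 KO, 3 WT libraries) and in tumor (2 KO, 3 WT). Only the interval of S1pr1 in tumor leaves out 0 (0.022 to 1.33), and no difference passes after adjustment.

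By group mean, S1pr1, S1pr4, Cd69 and Gpr183 had 1 order, with KO spleen highest, then WT spleen, KO tumor and WT tumor. For Cd44 both tumor groups were above both spleen groups, KO above WT in each tissue. Selplg also had the tumor groups on top, with WT above KO. The neighbouring spleen and tumor groups overlapped only in Cd69 (6.27 ± 0.11 in WT spleen and 6.09 ± 0.83 in KO tumor, SD). Within a tissue KO and WT did not differ beyond the test in any gene.

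The rest of the S1P pathway was read from lists of genes chosen with earlier results of these data known. Of 13 S1P receptors and relays, 6 were higher, 7 lower and 0 short of the threshold (median difference -0.56). The members were the receptors that fell most. S1pr2, a receptor coupled to G12/13 proteins that restrains migration, rose by 1.44 (from 2.71 ± 0.090 to 4.15 ± 0.18, SD; limma adjusted p = 1.64e-08), and S1pr3, found on many non-lymphoid cells, rose by 0.95. S1pr5, the receptor of NK cell egress, was barely listed and fell from 0.78 to 0.21, a call that was lost when centred on T cell genes (0.16). Among the relays, the G protein genes Gna12 (1.78), Gnai2 (1.10), Gna13 (1.07) and Gnai3 (0.88) were higher in tumor. Arhgef1, an exchange factor downstream of G12/13, fell by 1.84 on the log2 scale, and Dock2, the Rac exchange factor of lymphocyte migration, fell by 1.08. All 6 of the higher genes, and S1pr1, S1pr4, Arhgef1 and Dock2 among the lower, kept their call under all 5 scalings. Rac2 (-0.80) kept its sign without the call (-0.076) when centred on T cell genes, while Grk2 (-0.65), the kinase that desensitizes S1PR1, turned to 0.073.

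Of 12 genes that make, break down, export or carry S1P, 7 were higher and 4 lower as deposited (median 0.59), 5 and 5 with equal totals (median 0.16) and 8 and 2 when centred on T cell genes (median 1.31). The lipid phosphatases Plpp2 (2.53) and Plpp3 (from 1.05 to 3.05), the kinase Sphk1 (1.45) and the lyase Sgpl1 (1.35), which degrades S1P, rose. Mfsd2b, the S1P exporter of red cells and platelets, fell by 1.74 on the log2 scale, and the phosphatase Sgpp2 fell by 1.39. These 6 were called in the same direction under all 5 scalings. Erythroid and platelet markers fell with Mfsd2b, 8 of 9 being lower in tumor, with Pf4 the exception (2.35 to 8.69). Spns2, the exporter of endothelium, was at 1.04 in spleen and 1.41 in tumor and was not called (limma adjusted p = 0.077).

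S1pr1 belongs with Klf2 and Foxo1 to the program of recirculating naive-type T cells. Of 12 genes of this program 10 were lower in tumor, 1 was higher and 1 was not called, with a median difference of -1.75. Tcf7, which encodes the factor TCF1, fell by 3.72 on the log2 scale, and Lef1 fell by 3.40. Both falls were larger than that of S1pr1 itself. Foxo1 fell by 1.66, whereas Klf2, the factor known to activate S1pr1, fell by only 0.80 and was -0.070 when centred on T cell genes. Ccr7, the lymph node homing chemokine receptor, was 0.38 higher as deposited, but turned to -0.10 after quantile normalization and to -0.24 with equal totals. Il7r was not called as deposited (-0.031, limma adjusted p = 0.89) and took either direction with scaling, at -0.54 after quantile normalization (adjusted p = 0.035), -0.65 with equal totals (0.014) and 0.69 when centred on T cell genes (0.019).

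Cd69 is usually listed with the genes of tissue residency. Of 13 such genes 9 were higher, 2 were lower and 2 were not called (median 1.24). Nr4a1 (2.60), Prdm1 (2.56), the gene of BLIMP1, and Bhlhe40 (2.26) rose most, and Rgs1 (1.60), a brake on chemoattractant receptor signals, rose too. All 9 of these rises kept their call under the 5 scalings. The lower genes were Zfp683 (-1.24), the gene of HOBIT, and Cd69 (-0.49). Neither was called when centred on T cell genes, with Zfp683 at -0.51 (limma adjusted p = 0.054) and Cd69 at 0.24 (adjusted p = 0.17). Itgae, the CD103 integrin, was 3.81 ± 0.38 in spleen and 4.33 ± 1.10 in tumor (SD) and was not called (limma adjusted p = 0.26).

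Around Selplg, 10 of 14 genes that build or bind the PSGL-1 glycan were higher, 3 lower and 1 not called (median 0.48). This list depended on scaling more than the others, with 4 higher and 6 lower under equal totals. Gcnt1 (1.42), which builds the core 2 branch, the tyrosine sulfotransferase Tpst1 (1.39), and the fucosyltransferases Fut7 (1.10) and Fut4 (0.86) kept their rise in all 5 scalings. These enzymes make the selectin-binding form of PSGL-1. St3gal6, a sialyltransferase, fell by 0.79 on the log2 scale (-0.064 when centred on T cell genes).

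Around Cd44, 15 of 16 genes of hyaluronan and the cell cortex were higher and 1 lower (median 1.35; 9 higher and 3 lower with equal totals). The ligand gene Spp1 (osteopontin) rose by 8.70, the membrane protease gene Mmp14 by 6.14, the hyaluronan synthase gene Has1 by 5.10 and Cd74 by 5.01. Has3 fell by 0.68 on the log2 scale but turned to 0.050 when centred on T cell genes. Spp1, Mmp14 and Cd74 are expressed by myeloid cells and Has1 by fibroblasts, and 16 of 16 myeloid and 5 of 6 fibroblast markers were also higher in tumor, with Col3a1 at 0.27 in spleen and 8.84 in tumor. The cortical linkers that tie CD44 to actin moved little, with Msn at 0.61, Rdx at 0.43 and Ezr at 0.39, and each turned negative with equal totals, Msn and Ezr also after quantile normalization.

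Gpr183 was lower as deposited (-0.91), though not called when centred on T cell genes (-0.18, limma adjusted p = 0.30), while genes of the enzymes of its ligand rose. Of the 4 genes listed in this pathway, Ch25h (5.46), the cholesterol 25-hydroxylase that makes the precursor of the GPR183 ligand, Hsd3b7 (3.36), which degrades the ligand, and Cyp27a1 (2.17) were higher in all 5 scalings. Ch25h stood at 0.21 ± 0.12 in the 6 spleen libraries and at 5.67 ± 0.49 in the 5 tumor libraries (mean ± SD). Cyp7b1 is not listed among the values used here. Whether these enzymes were expressed by Tregs or by other cells in the sort was not tested. Over the 7 lists together 82 genes were tested once each, of which 51 were higher, 26 lower and 5 not called, which is 93.9% called against 78.9% of all genes. The lists hold the members and were chosen with earlier results of these data known, so this share is no test of the pathways.

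**Figure D5:**
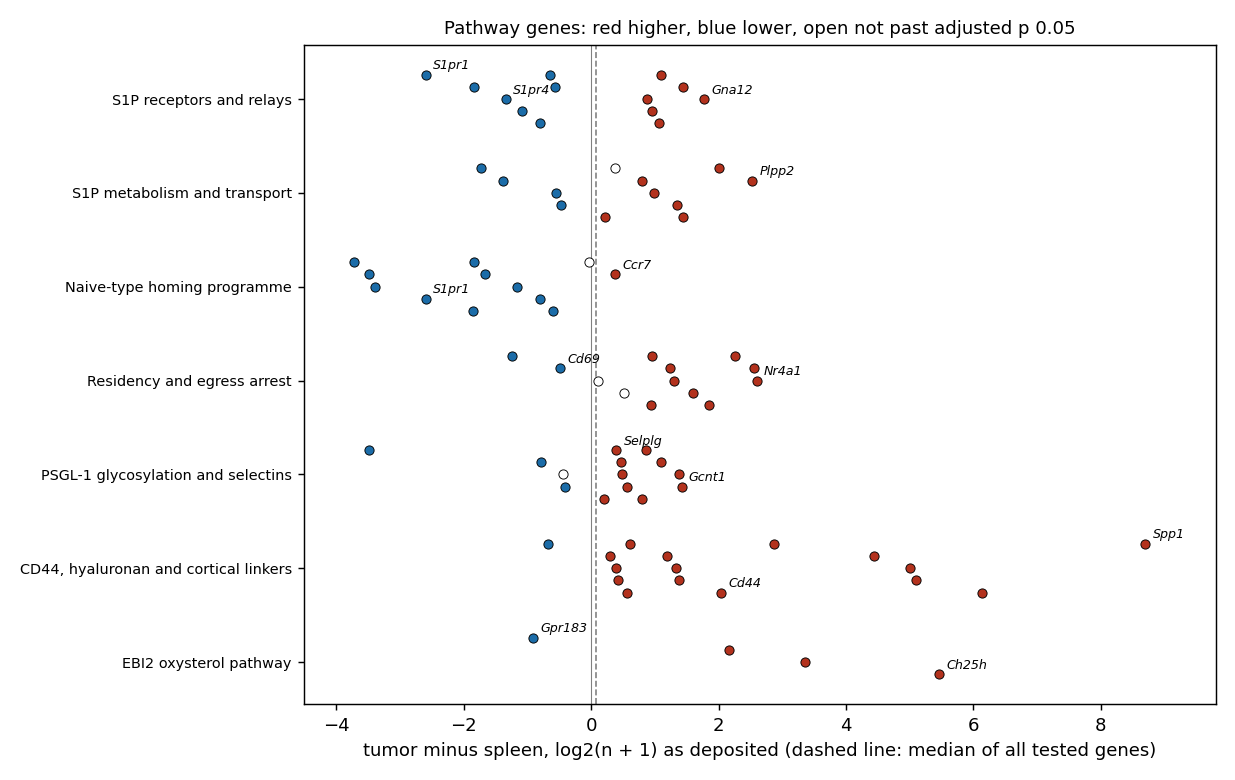
Each dot is 1 gene of the 7 pathway lists at its tumor minus spleen difference on the deposited log2(n + 1) scale, red where higher, blue where lower and open where not past an adjusted p of 0.05 in limma, with the members and the highest gene of each list named. The naive-type homing genes lie mostly below 0 (median -1.75) and the CD44 and hyaluronan genes mostly above it (median 1.35), around a median of 0.082 for all tested genes.

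Promoter sequence was on hand for 3 members, and 250 bases before the start site of each (RefSeq, GRCm38.p6) are shown 5′ to 3′ on the gene's strand, because S1pr4 and Gpr183 were lower and Cd44 higher in tumor as deposited. The windows are chr10:81500138-81500387 for S1pr4, chr2:102901666-102901915 for Cd44 and chr14:121965194-121965443 for Gpr183, all on the minus strand. Capitals mark the single match to CACCC, the core of KLF-family sites, read here on the opposite strand.
S1pr4: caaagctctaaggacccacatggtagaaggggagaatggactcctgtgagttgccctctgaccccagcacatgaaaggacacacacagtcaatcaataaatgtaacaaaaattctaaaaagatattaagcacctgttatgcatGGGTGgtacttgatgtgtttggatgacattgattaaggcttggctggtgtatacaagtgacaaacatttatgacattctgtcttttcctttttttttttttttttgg
Cd44: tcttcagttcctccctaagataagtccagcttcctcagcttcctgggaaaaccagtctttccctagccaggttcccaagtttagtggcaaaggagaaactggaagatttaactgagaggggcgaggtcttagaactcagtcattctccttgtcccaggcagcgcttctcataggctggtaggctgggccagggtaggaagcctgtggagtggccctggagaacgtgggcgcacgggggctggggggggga
Gpr183: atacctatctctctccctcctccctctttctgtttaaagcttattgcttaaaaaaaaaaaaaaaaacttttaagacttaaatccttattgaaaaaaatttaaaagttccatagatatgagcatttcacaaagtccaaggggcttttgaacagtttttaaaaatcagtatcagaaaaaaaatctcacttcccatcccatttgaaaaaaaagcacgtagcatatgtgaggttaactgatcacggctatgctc
The 3 motifs were searched for on both strands of the 300 bases from 250 before to 50 after the start: CACCC, the AP-1 site TGANTCA and the FOXO site GTAAACA. Of 32851 mouse promoters of this length 57.5% hold CACCC, 7.81% TGANTCA and 3.65% GTAAACA. S1pr4 held CACCC once, at position -107, while Cd44 and Gpr183 held none of the 3. The Cd44 window had a GC content of 56.4%, against 38.8% for S1pr4 and 32.0% for Gpr183. No sequence is shown for S1pr1, Cd69 and Selplg.

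For each member the genes with the most similar profile were found among 8686 genes with a mean of at least 3, by the root mean square difference of centred log2 values over the 11 libraries. S1pr1 was closest to Gm4759 (0.20), Trib2 (0.24) and Chd3 (0.26). S1pr4 was matched more tightly, by Kmt2b (0.086), Stk10 (0.089) and Rcsd1 (0.095), and Cd44 by Man1c1 (0.086), Frmd4b (0.10) and Cyp4v3 (0.11). Cd69 had looser neighbours in Tmem64, Abcb1a and Birc2 (0.18 to 0.19). Gpr183 lay near Slc35b3 (0.15) and the T cell gene Cd5 (0.16), and Selplg near Vps28 (0.054), Pttg1 (0.061) and Rps23-ps1 (0.064), a pseudogene whose reads can be shared with its parent gene. Among the members themselves S1pr4 and Gpr183 were the most alike (0.29) and S1pr1 and Cd44 the least (2.37). The tissue step dominates these distances, which are a description.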

How the data were processed

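Ribosomal RNA-depleted libraries of sorted Tregs (NEBNext Ultra II) were sequenced as single-end reads. Per the labels and the study's methods, the authors pseudoaligned reads to mm10 with kallisto, processed estimated counts with sleuth 0.30.0, summed them by gene symbol and deposited log2(n + 1) values, 1 column per library. The version of kallisto and the release of its annotation are among the items not given in the sources used here. The methods state an approximate read depth, but the totals of n lie far below it, so the reads behind a value cannot be recovered, counting intervals are left out and precision rests on the spread between libraries.

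Genes with a mean log2 of at least 0.5 were kept (707 removed). limma 3.58.1 (R 4.3.3, eBayes with trend) set 5 tumor against 6 spleen libraries over both genotypes, and a model of 4 group means gave the other contrasts. Calls used Benjamini-Hochberg adjusted p below 0.05 over 13897 genes. Single values were compared by exact two-sided permutation, listing every assignment of the libraries to the tissues. The fit was tested on simulated data. Gene coordinates are from GENCODE M21, in which no exon of a member overlaps another gene's exon. Spleen and tumor libraries were not treated as paired by replicate number, because the labels do not say which libraries share a mouse. The tests therefore treat libraries as independent, although tumors and spleens came from the same mice. The members, lists and tests were chosen with earlier results of these data known. Named genes are the members, genes of the pathway lists including the 2 largest rises and falls of each, the 3 genes most like each member, the top marker of a list and 5 label genes, except that some items are not reported here. Gfus and Adrbk1 are other names of the listed Tsta3 and Grk2, and Has2, Lyve1, Cyp7b1 and Cyp46a1 are not listed.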

Additional observations from a re-analysis of the deposited data

Results flagged for a closer look

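Among 28 groups of 5 or 6 libraries examined, 2 held a value far from the others by Dixon's criterion, and chance gives about 1 in 20, or 1.4. Cd44 in WT replicate 2 of the spleen read 5.73, while the other 5 spleen libraries lay between 5.96 and 6.10. It remained below every tumor library. Cd69 relative to the T cell lineage genes was -0.59 in KO replicate 1 of the tumor, while the other 4 tumor libraries lay between -1.20 and -1.09. The same library had the highest Cd69 as deposited among the tumor libraries, at 6.68.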

How the results depend on the processing

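S1pr1, S1pr4 and Cd44 kept direction and call in all 24 alternatives to the pooled tumor-spleen fit. With the Bonferroni correction 3 members passed pooled, 3 in WT and 1 in KO (all genes: 5051, 2449 and 1857 against 10971, 9794 and 9127). Under it Cd69 (-0.49), Gpr183 (-0.91) and Selplg (0.40) lost their call. Selplg was -0.22 by quantile normalization, 0.18 by median centring and -0.23 with equal totals. Within WT it was -0.25 and -0.22, and within KO -0.20 and -0.24, by quantile and equal totals. Centred on T cell genes, Cd69 was 0.24 pooled, 0.31 in WT and 0.22 in KO, and Gpr183 was -0.18 pooled. In KO 3 members passed under this centring, S1pr1, Cd44 and Selplg, against 8151 of all 13897 genes. S1pr4 (-0.48, limma adjusted p = 0.083) and Gpr183 (-0.041) lost their call there. Relative to the median of the T cell list, Cd69 was 0.35 (exact permutation p = 0.039). Relative to the mean of Cd2, Cd5 and Cd6, chosen after the data were seen, it was -0.0047 and Gpr183 -0.43 (exact p = 0.0043). The cause was not tested.

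Uncalled genotype estimates near 0 changed sign. The Cd44 interaction (-0.023) was 0.00068 by quantile, 0.00056 by median and 0.019 by T cell centring, and that of Selplg (-0.0010) was 0.053, 0.023 and 0.041. Leaving out 1 library at a time gave pooled Cd69 -0.67 to -0.37 and Cd69 in KO -1.12 to 0.054. Interactions then ran from -0.11 to 0.71 for S1pr1, -0.20 to 0.50 for Gpr183, -0.72 to 0.45 for Cd69, -0.24 to 0.12 for Cd44 and -0.12 to 0.11 for Selplg. KO against WT in spleen ran from -0.032 to 0.11 for S1pr4 and -0.058 to 0.13 for Cd44, and in tumor from 0.27 to 1.08 for S1pr1, 0.038 to 0.74 for Gpr183, -0.37 to 0.80 for Cd69, -0.18 to 0.17 for Cd44 and -0.19 to 0.034 for Selplg. Over all genes these fits called 0 to 2 genes for KO against WT in tumor and 0 to 1 for the interaction.

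Same-numbered spleen and tumor libraries did not deviate together (r from -0.13 to 0.038 over 5 pairs), nor did same-numbered WT and KO spleen libraries (-0.19 to 0.040 over 3 pairs). Same-numbered WT and KO tumor libraries gave 0.28 and 0.45 over 2 pairs. With 2 KO tumor libraries their deviations mirror each other, so these values cannot show that libraries go together by number. The differently numbered WT replicate 3 and KO replicate 2 gave 0.29. The labels tie the tumor pairs to nothing shared, so no numbers were taken as pairs. With the replicate number as a block Selplg in KO was 0.32 and lost its call (limma adjusted p = 0.085), no other member call changed, and all genes called pooled were 10512. The reads behind each value cannot be recovered from n, 2 KO tumor libraries limit that contrast, and the mixture of cells in the sort was not measured.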
